A study of Homo sapiens with 3 samples.

Results

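BRG1 peaks were examined at 10 genes of transforming growth factor beta (TGF-beta) signalling, SMAD3, SMURF2, SMAD2, SMAD4, SMAD7, SKIL, TGFB1, TGFB2, TGFBR1 and TGFBR2, of 19974 protein-coding genes in all. A peak was assigned to a gene when its midpoint lay in the gene body, or within 100 kb with that gene as the nearest protein-coding gene. By this rule the 10 genes held 26 of 6293 peaks of the overlap list on chromosomes 1 to 22 and X, 56 of 17323 peaks of replicate 1 and 29 of 10082 peaks of replicate 2. BRG1, encoded by SMARCA4, is the ATPase that drives the SWI/SNF chromatin remodelling complex. It was mapped by chromatin immunoprecipitation and sequencing in wild-type 12Z cells, an established human endometriotic epithelial line, with an antibody to BRG1. No cells in the series carried another genotype or received a treatment. The series holds 2 BRG1 libraries and 1 library of input chromatin, for which no list was used here. Nothing in the labels says that the replicates came from separate cultures. Peaks of the overlap list are called shared peaks, and every one of the 6293 was overlapped by a peak of each replicate.

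The ligands TGFB1 and TGFB2 bind the receptor TGFBR2, which activates the kinase TGFBR1. TGFBR1 phosphorylates SMAD2 and SMAD3, which enter the nucleus with SMAD4 and act on target genes together with other transcription factors. SMAD7 and the ubiquitin ligase SMURF2 act on the receptors to end the signal, and SKIL represses SMAD-dependent transcription. In epithelia the pathway is known for growth arrest, matrix production and loss of epithelial character.

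The genes were chosen by the numbers of shared peaks already known at SMAD3 and SMURF2, so peak numbers are a description and carry no test. Fold enrichment and −log10 q are the authors' values for each peak and rank peaks only within their own list. Read counts are not in the lists, which leaves the sequencing depth unknown and its sampling error outside every value given.

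Sequence at the starts of SMAD3 and SMURF2 is shown first, because the peaks differ in whether they cover a start. RefSeq gives SMAD3 5 transcription starts and SMURF2 1. Only the third SMAD3 start, 60.1 kb inside the gene, had its window from 250 bases before to 50 bases after the start under a shared peak. The 250 bases before 3 starts follow, 5′ to 3′ on the transcribed strand, from RefSeq on GRCh38.p14. Capitals mark matches, on either strand, to the motif letters CAGACA (SMAD), TGANTCA (AP-1) or GGAATG (TEAD).
SMAD3 start 1, chr15:67065352-67065601, + strand: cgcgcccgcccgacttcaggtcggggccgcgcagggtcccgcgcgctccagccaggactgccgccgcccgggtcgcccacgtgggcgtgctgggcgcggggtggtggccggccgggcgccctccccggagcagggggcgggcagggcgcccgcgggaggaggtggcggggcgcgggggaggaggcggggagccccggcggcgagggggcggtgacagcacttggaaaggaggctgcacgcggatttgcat
SMAD3 start 3, chr15:67125492-67125741, + strand: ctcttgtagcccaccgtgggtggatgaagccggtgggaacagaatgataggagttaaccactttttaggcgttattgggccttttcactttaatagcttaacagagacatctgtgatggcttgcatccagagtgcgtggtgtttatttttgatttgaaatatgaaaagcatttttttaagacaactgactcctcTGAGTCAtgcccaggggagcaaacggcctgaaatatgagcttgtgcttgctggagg
SMURF2 start 1, chr17:64662308-64662557, − strand: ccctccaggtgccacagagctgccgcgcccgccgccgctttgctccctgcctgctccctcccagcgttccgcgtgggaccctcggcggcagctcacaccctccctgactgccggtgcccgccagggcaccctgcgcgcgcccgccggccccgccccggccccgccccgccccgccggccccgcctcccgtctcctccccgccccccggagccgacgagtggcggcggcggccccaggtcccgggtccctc

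The outer SMAD3 start and the SMURF2 start lie in GC-rich sequence, with 36 and 33 CpG dinucleotides in 250 bases and a GC content of 80.8% and 82.0%. Neither holds any of the 3 motifs. The third SMAD3 start has 5 CpG and 44.8% GC, against medians of 16 CpG and 62.0% over 22132 start windows of protein-coding genes. It holds 1 match to the AP-1 letters, which read the same on both strands, and it overlaps no other match. Those letters occurred in 5.35% of all start windows and in 23.9% of the 142 windows under a shared peak. The TEAD letters occurred in 10.5% and 23.9%, and the SMAD letters in 12.0% and 18.3%. A match describes the letters and is no evidence of binding by the factor.

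SMAD3, a receptor-activated SMAD (gene ID 4088), had the most peaks of the 10 genes in every list, 13 shared, 21 in replicate 1 and 15 in replicate 2. SMURF2, a ubiquitin ligase (gene ID 64750), came next with 8 shared, 17 in replicate 1 and 8 in replicate 2. TGFB2, a ligand gene, had 2 shared, 6 and 2 peaks, and the inhibitory SMAD7 had 2, 4 and 3. SMAD2, the other receptor-activated SMAD of this branch, had 1, 2 and 1. These 5 genes were the only ones of the 10 with a shared peak, against a background of 9.67% of all protein-coding genes, whatever their length. In the replicate 1 list, 9 of the 10 genes had a peak (background 20.2%). In the replicate 2 list the same number as among shared peaks, 5, did (background 11.5%). These backgrounds also cover genes of any length, and no share matched for length was taken for the replicate lists. SMAD4 and TGFBR2 had 2 peaks each in replicate 1 and none in replicate 2, TGFB1 and TGFBR1 had 1 and none, and SKIL had none in any list. For the genes at 0, the lists show only that no peak passed the authors' threshold. The plot of peak numbers by gene shows the steep fall after the first pair.

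**Figure D1:**
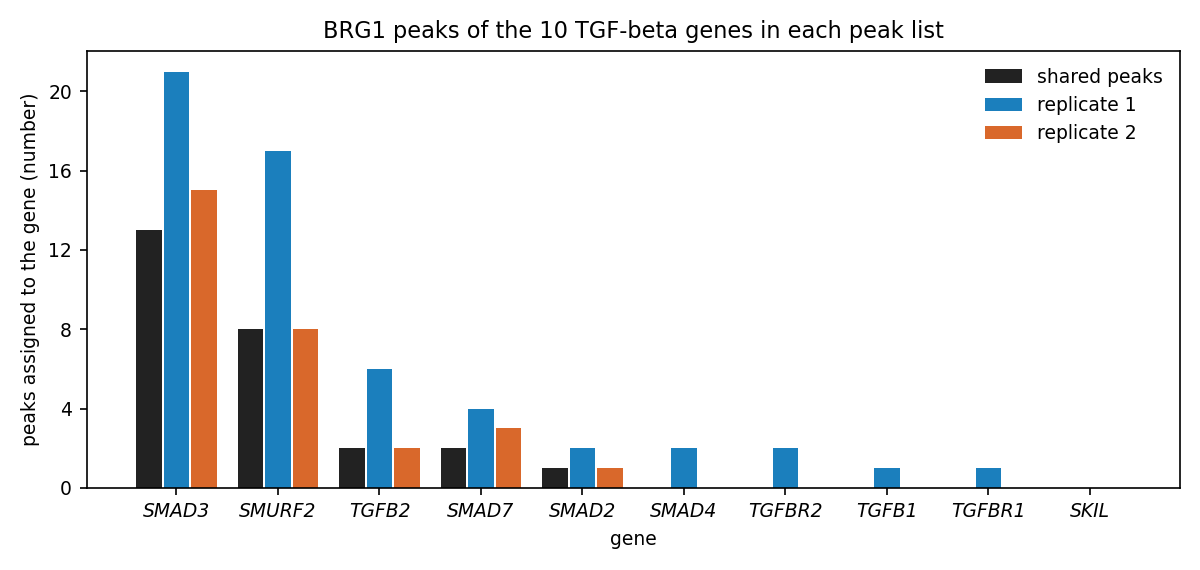
Bars give the number of BRG1 peaks (vertical axis) assigned to each of the 10 genes (horizontal axis) in the shared, replicate 1 and replicate 2 lists. SMAD3 stands at 13, 21 and 15, SMURF2 at 8, 17 and 8, no other gene exceeds 6 and SKIL is at 0 in every list.

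Only 4 of the 19974 genes (0.02%) had 13 or more shared peaks. The other 3 were TPTE with 30, LOC124903442 with 28 and CWH43 with 21. For SMURF2, 24 genes (0.12%) had 8 or more. With gene bodies alone, 11 genes had as many as SMAD3 and 140 as many as SMURF2, and with a limit of 1 Mb, 14 and 55 did. Of the 1932 genes with a shared peak, 1279 had exactly 1. Long genes can collect more peaks, so each count was also set against the gene's domain, the stretch of positions that the rule assigns to it. SMAD3 had a domain of 232 kb and 5.60 shared peaks per 100 kb of it. SMURF2 had 218 kb and 3.67 per 100 kb. Among the 6758 genes with a domain of 100 kb or more, SMAD3 ranked 4 and SMURF2 ranked 15 by this density. Over all 19974 genes, where a single peak in a short domain gives a high density, they ranked 54 and 144. SMAD7 (1.96 per 100 kb), TGFB2 (0.99) and SMAD2 (0.37) ranked 89, 331 and 1060 among those of 100 kb or more. The 5 members with a shared peak had domains of 102 to 270 kb. Of all genes with a domain of 100 to 300 kb, 17.2% had a shared peak. SMAD4 and TGFBR2, with domains of 121 and 104 kb, had none.

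**Figure D2:**
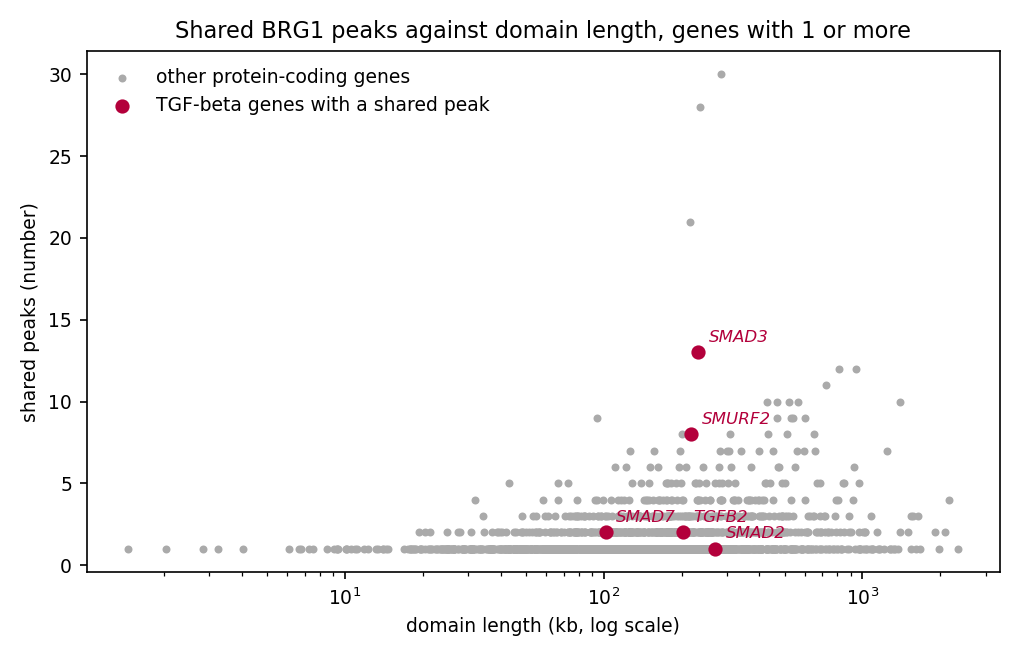
Each point is 1 of the 1932 protein-coding genes with a shared peak, with its domain length in kb on a log scale (horizontal) and its number of shared peaks (vertical). SMAD3 (13 peaks, 232 kb) lies above nearly all genes of like or longer domain, and SMURF2 (8 peaks, 218 kb) lies below it at a like length.

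The surroundings of both genes held fewer peaks. In the flanks of SMAD3 out to 1 Mb, outside its own domain, there were 7 shared peaks, or 0.37 per 100 kb. The rest of chromosome 15 between its first and last coding gene had 0.45 per 100 kb. The flanks of SMURF2 held 3 shared peaks, or 0.16 per 100 kb, and the rest of chromosome 17 had 0.29. On one side of SMAD3 lies SMAD6, an inhibitory SMAD of the BMP branch, with 3 shared peaks, and on the other AAGAB with 0. The neighbours of SMURF2, CEP95 and LRRC37A3, had 0 each. The next shared peak beyond those of SMAD3 lay 134 kb from the gene and was assigned to no gene, while the farthest one counted lay 41.0 kb away. For SMURF2 the farthest one counted lay 44.9 kb away and the next lay at 280 kb, in the domain of TEX2, so the 100 kb limit did not fall among the peaks of either gene.

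Of the 13 shared peaks of SMAD3, 5 lay before the outer start and 8 within the gene body. All 5 upstream peaks lay over SMAD3-DT, a divergent long non-coding RNA gene, and none lay past the 3′ end. The outermost pair lay 41.0 and 39.7 kb before the start, at chr15:67024183-67024963 and chr15:67025661-67026233. The first of these had a fold of 3.72 in the overlap list, 3.70 in replicate 1 and 4.70 in replicate 2. Its partner had 3.53, 3.88 and 4.07. The middle pair lay 23.6 and 21.2 kb before the start, at chr15:67041470-67042589 (fold 3.96; 4.73 in replicate 1 and 3.77 in replicate 2) and chr15:67043947-67044852 (3.98; 4.34 and 4.12). Nearest to the start, a broad peak of 2525 bases at chr15:67048502-67051026 had a fold of 3.33, with 3.71 and 3.88 in the replicates. In both libraries all 5 upstream peaks ranked above the middle of the list by fold.

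Just past the outer start, replicate 1 alone had 4 peaks, 0.565, 3.02, 11.0 and 15.2 kb into the gene, with folds of 3.26 to 3.77, and replicate 2 had none there. Inside SMAD3 the first shared peak lay 25.8 kb past the outer start, at chr15:67091242-67091653, with folds of 4.09 in the overlap list, 3.97 in replicate 1 and 4.42 in replicate 2. A peak of 2537 bases followed at chr15:67105400-67107936 (fold 3.52). It covered 2 peaks in each replicate, and the one in replicate 2 at chr15:67107310-67107447 had the highest fold of all members' peaks in that library, 5.07, at percentile 98.8 of its list. The next, chr15:67109074-67110065, had 3.37 in the overlap list, 4.08 in replicate 1 and 3.42 in replicate 2. These peaks fell between 41.1 and 44.0 kb past the outer start. A narrow peak at chr15:67120958-67121317, 55.5 kb in, had 3.54, 3.52 and 3.99.

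The peak over the third start lay at chr15:67125422-67126575, with a fold of 3.20 in the overlap list, at percentile 37.1 of that list. The replicate 1 peak there (fold 3.61) also covered the start window, whereas the replicate 2 peak (fold 3.52) began 0.094 kb past the start. It was therefore among the weaker SMAD3 peaks, and the only shared peak of the 10 genes over a start window. Over all protein-coding genes with a start in the table, 0.759% had a start window under a shared peak, and 5.36% of the 224 genes with 5 or more start windows did.

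Farther in, the weakest SMAD3 peak lay at chr15:67146173-67148570 (fold 2.90, 3.60 in replicate 1 and 3.47 in replicate 2), overlapping the antisense gene SMAD3-AS1. The replicate peaks under it lay side by side, ending at 67146654 in replicate 1 and starting at 67146727 in replicate 2, so neither was counted as found in the other. The next at chr15:67149554-67151159 had 4.11, 4.69 and 4.29, and was the only SMAD3 peak whose −log10 q reached 3 in each replicate, at 4.81 and 3.31. The last lay at chr15:67178747-67179040, 113 kb past the outer start, and had the highest fold of the 13, 4.35, with 4.46 and 4.03 in the replicates. SMAD3 peaks thus reached from 41.0 kb before the gene to near its 3′ end, over a span of 155 kb. Together they covered 15.7 kb, or 6.74% of the domain.

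SMURF2 lies on the − strand of chromosome 17, and 5 of its 8 shared peaks lay before its start and 3 within the gene. A pair of them flanked the start without covering it. On the gene side, chr17:64659101-64661548 began 0.759 kb past the start and had a fold of 3.25, with 3.67 in replicate 1 and 3.63 in replicate 2. Before the start, chr17:64663875-64664882 had 3.48, with 3.88 and 3.67. In replicate 1 a separate peak at chr17:64662162-64662554 (fold 3.69) lay over the start itself, and in replicate 2 the nearest peak was 2.41 kb away. A peak over the SMURF2 start was therefore called in 1 of 2 libraries. In replicate 1, 4 of the 10 genes had a peak over a start window, SMAD3, SMURF2, SMAD7 and TGFBR1. Of the 15812 protein-coding genes with a start in the table, 1.66% did. In replicate 2 none of the 10 had one, against 0.721%. These shares are not matched for the number of starts, which is 5 for SMAD3, 1 for SMURF2, 3 for SMAD7 and 8 for TGFBR1.

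The other upstream peaks of SMURF2 lay 9.19, 18.0, 20.5 and 44.9 kb before the start. The one at chr17:64679225-64681440 had a fold of 3.87 in the overlap list, 4.65 in replicate 1 and 4.41 in replicate 2. It ranked at percentile 97.5 of replicate 1 and 92.1 of replicate 2. Beside it, chr17:64681878-64683824 had 3.24, 3.39 and 3.81, the lowest fold of the 8 in the overlap list. The farthest, chr17:64706479-64707934, had 3.67, 4.09 and 4.09, and chr17:64670937-64672060 had 3.33, 3.71 and 3.66. Within the gene, the peak of highest fold, 4.02, lay 38.8 kb past the start at chr17:64622805-64624266, with 4.25 and 4.50 in the replicates. The remaining one, chr17:64653373-64654107, had 3.53, 3.47 and 4.28. Unlike at SMAD3, no shared peak lay in the distal part of the gene body, beyond 32.3% of its length.

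**Figure D3:**
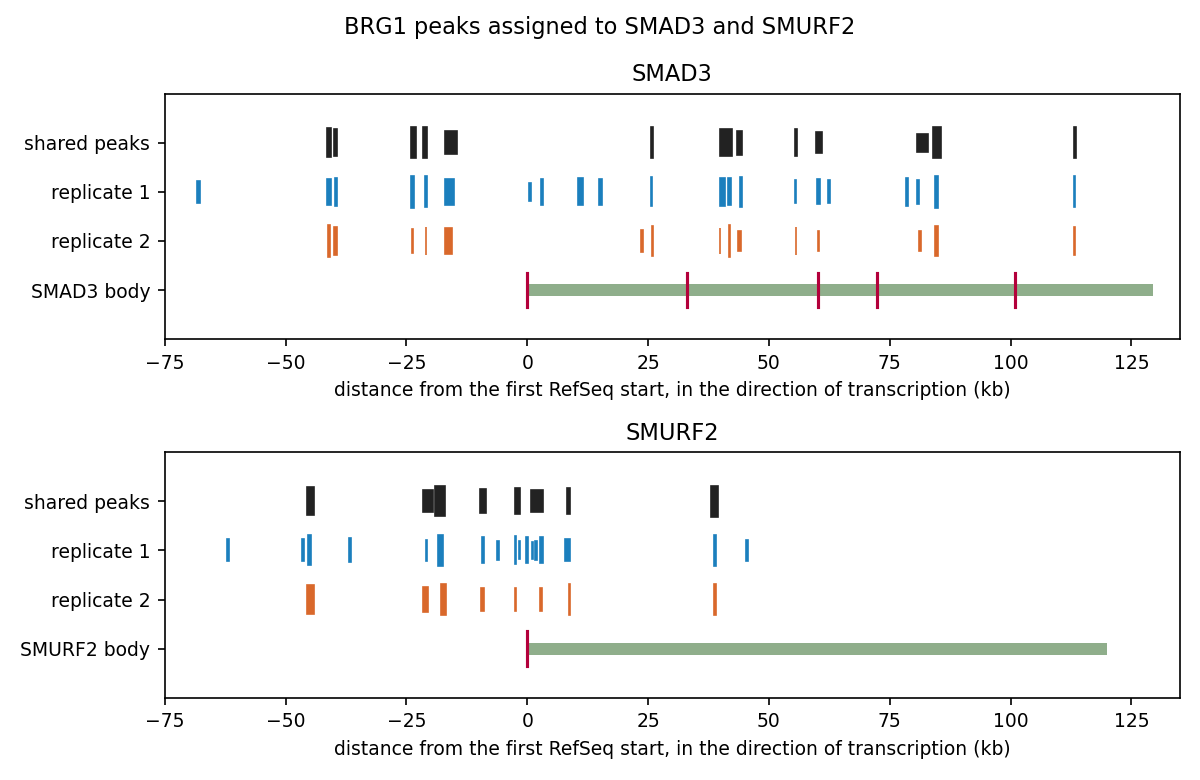
Peaks assigned to SMAD3 (top) and SMURF2 (bottom) by distance from the first RefSeq start in kb, in the direction of transcription; bar width is the peak's length with a thin outline, bar height rises with the fold percentile in its list, the green bar is the gene body and red ticks are RefSeq starts. The 13 shared SMAD3 peaks run from 41.0 kb before the start to 113 kb past it, and the 8 of SMURF2 from 44.9 kb before to 38.8 kb past.

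Among the remaining SMAD genes, the single shared peak of SMAD2 was narrow, 185 bases at chr18:47881880-47882064, 48.9 kb past the outer start. Its fold was 4.24 in the overlap list, at percentile 96.3, 3.64 in replicate 1 and 4.88 in replicate 2. SMAD7, which blocks the receptors, had its shared peaks toward its 3′ end, at chr18:48923048-48923836 (fold 3.50; 3.89 and 4.12 in the replicates) and chr18:48929555-48930499 (3.21; 3.32 and 3.81). SMAD4, the partner of all receptor-activated SMADs, had peaks in replicate 1 alone, at chr18:51029523-51029783, 0.56 kb before its start (fold 3.66), and at chr18:51068190-51068412 (4.17). The SMAD genes of chromosome 18 thus had 3 shared peaks in all, against 13 at SMAD3 on chromosome 15.

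Of the ligand genes, TGFB2 had both its shared peaks past its 3′ end. The one 35.8 kb away, chr1:218479325-218481607, had a fold of 3.29, with 3.75 in replicate 1 and 4.31 in replicate 2. The other, 52.0 kb away at chr1:218496322-218497015, had 3.70, 4.19 and 4.21. TGFB1 had 1 peak in its body in replicate 1 (fold 3.32, at percentile 23.8). The receptor genes were called in replicate 1 alone. TGFBR1 had a peak over 4 of its 8 start windows, at chr9:99104215-99104881 (fold 3.45), and TGFBR2 had peaks 1.06 kb (3.36) and 52.6 kb (3.44) past its outer start. None of the peaks of TGFB1, TGFBR1, TGFBR2 and SMAD4 reached a −log10 q of 3.

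Shared peaks of the 10 genes were of moderate strength. Their median fold stood at percentile 68.6 of the overlap list, against 62.8 for the 3244 shared peaks near any protein-coding gene. A −log10 q of 5 or more in the overlap list was reached by 7 of 26 (26.9%), 6 at SMAD3 and 1 at SMAD2, against 14.9% of shared peaks near a gene. By fold, 16 of the 26 (61.5%) had a matching peak above the middle of both replicate lists, against 62.4% of shared peaks near a gene. A further 6 (23.1% against 13.4%) were above it in replicate 1 only and 4 (15.4% against 11.9%) in replicate 2 only. There were 0 in neither, against 12.3% near any gene. A −log10 q of 2 was reached in each replicate by 15 of the 26 (57.7%, against 50.2% near any gene). A value of 3 was reached by 3 (11.5% against 10.3%), 1 at SMAD3 and 2 at SMURF2, and a value of 5 by 0 (against 1.26%). No test compared these shares.

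**Figure D4:**
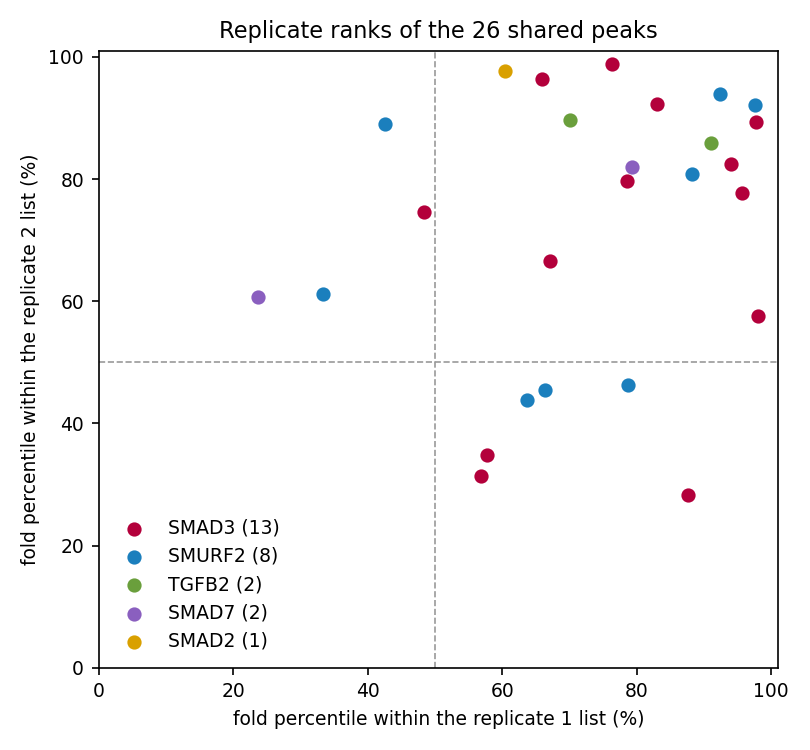
Each point is 1 of the 26 shared peaks, placed by the fold percentile of its matching peak in the replicate 1 list (horizontal, %) and the replicate 2 list (vertical, %), with colours for the gene and dashed lines at the middle of each list. The upper right part, above both lines, holds 16 of the 26 (61.5%), a share close to the 62.4% of all shared peaks near a gene.

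Of the 56 replicate 1 peaks of the 10 genes, 26 (46.4%; exact 95% Clopper-Pearson interval 33.0 to 60.3%, counting error only) were overlapped by a replicate 2 peak, and of 29 replicate 2 peaks, 26 (89.7%; interval 72.6 to 97.8%) by a replicate 1 peak. For all protein-coding genes the shares were 33.0% and 74.1%. At SMAD3 they were 13 of 21 and 13 of 15, and at SMURF2 8 of 17 and 8 of 8. The other 8 genes together had 5 of 18 (27.8%) and 5 of 6. Because the genes were chosen for shared peaks, the higher shares at SMAD3 and SMURF2 follow in part from that choice. The intervals treat peaks as independent, although most came from SMAD3 and SMURF2. They therefore cannot be used to set the members against all genes.

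Replicate 1 peaks without a replicate 2 counterpart lay within 3 kb of a start more often than those with one, by count and with no test. Of the 30 without one at the 10 genes, 12 (40.0%) lay within 3 kb of a RefSeq start, against 3 of the 26 (11.5%) with one. Of the 30, 5 lay under a shared peak, 3 of them within 3 kb of the SMURF2 start, and without these 5 the count was 9 of 25 (36.0%). Over all protein-coding genes the shares were 14.0% of 6138 peaks and 7.68% of 3021, out of 6469 and 3193 such peaks in all. Shared peaks of the 10 genes lay a median of 14.3 kb from the nearest start of their own gene. For 3071 of the 3244 shared peaks near any gene, the median distance to the nearest start of any protein-coding gene was 43.9 kb. The table of starts holds all 10 genes but only 15812 of the 19974, so this distance may be too long for a like comparison. The replicate 1 list is the longer one, with 17323 peaks against 10082, and the part this plays was not tested.

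The genes with peak numbers most like those of SMAD3 over the 3 lists, by distance in log2 of the number plus 1, were CAST, KCNMA1, TRIO, THSD4 and TENM2. They had 10 to 12 shared, 18 to 24 replicate 1 and 12 to 14 replicate 2 peaks. Their domains ran from 468 kb for TRIO to 1399 kb for TENM2, longer than the 232 kb of SMAD3. Most like SMURF2 were ARID5B, LRMDA, PALM2AKAP2, SEMA5A and SBF2, with 7 to 9 shared peaks in domains of 306 to 1243 kb. The 3 lists are not independent, since every shared peak has a counterpart in both replicate lists.

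Of 70 other genes of the pathway and its BMP branch, 19 (27.1%) had a shared peak, 38 (54.3%) a replicate 1 peak and 22 (31.4%) a replicate 2 peak. Over all protein-coding genes the shares were 9.67%, 20.2% and 11.5%. Pathway genes had longer domains, with a median of 127 kb against 56.5 kb for all genes. Among genes with a domain of 100 to 300 kb, 13 of 39 pathway genes had a shared peak, against 17.2% of all 5487 such genes. The 70 genes were listed with earlier results of these data known. Their shares are therefore a description and carry no test.

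By role, these small counts are given beside the 9.67% of all genes. No share matched for domain length was taken by role. Receptors (TGFBR3, the activin and BMP receptors, ENG and BAMBI) had a shared peak in 0 of 11, a count close to the 9.67%. Their median domain was 186 kb, and 17.2% of all genes with a domain of 100 to 300 kb had one. In replicate 1 alone ACVR1B, BMPR1A and BMPR2 had peaks, and in replicate 2 alone TGFBR3 did. Among ligands 1 of 10 had a shared peak, BMP7, and among the other SMADs and the anchor ZFYVE9 1 of 5 did, SMAD6. Of 12 ubiquitin ligases, related enzymes and corepressors, 1 had any, NEDD4L, a ligase related to SMURF2, with 2. The shares of 10% for ligands and 8.33% for ligases and corepressors are also close to the 9.67%. SMURF1, the closest relative of SMURF2, had no shared peak. Latency and activation genes had 4 of 8. These were ITGB6 with 4 peaks and ITGB8 with 1, which encode integrin chains that release active TGF-beta, and LTBP1 with 1 and LTBP2 with 2, which encode latent TGF-beta binding proteins. The highest ITGB6 peak had a fold of 4.27 (chr2:160205384-160205968). The LTBP1 peak at chr2:32916216-32916625 paired a −log10 q of 34.9 with a fold of 3.16, whereas the highest −log10 q among the 26 shared peaks of the 10 genes was 6.54.

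Target genes had 8 of 16, and antagonists 4 of 8. TGFBI, a matrix protein gene induced by TGF-beta, had 4 shared peaks, of which 3 lay 8.48 to 16.7 kb from the gene. CCN2, COL1A1 and FN1 had 2 each, and CDKN1A, CDKN2B and COL1A2 1 each. The antagonists FST and NOG had 3 each, and FSTL3 and DCN 1 each. No test compared these roles.

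**Figure D5:**
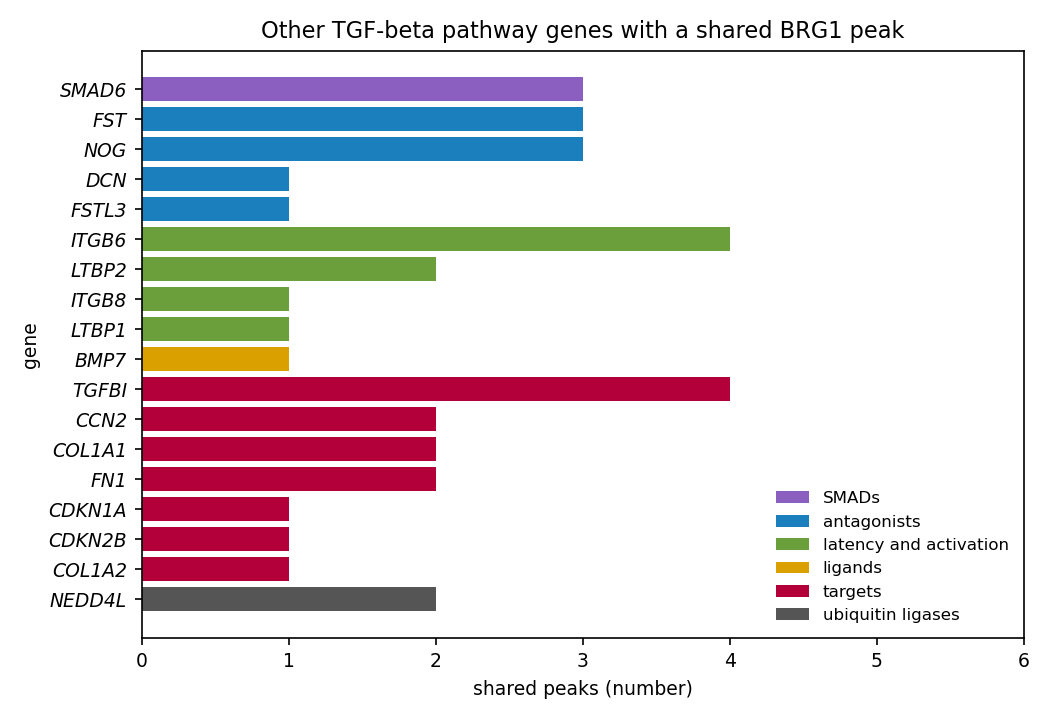
Horizontal bars give the number of shared peaks (horizontal axis) of 18 of the 19 other pathway genes that had any (vertical axis), coloured by role. ITGB6 and TGFBI have the most, 4 each.

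As a check of the labelled cell type, 3 of 6 epithelial markers (KRT7, KRT8 and KRT18), 3 of 5 stromal fibroblast, 1 of 3 endothelial and 0 of 3 immune markers had a shared peak. The stromal ones were THY1, COL1A1 and DCN, and the endothelial one was VWF. Of all protein-coding genes, 9.67% had a shared peak. The epithelial markers KRT19, EPCAM and CDH1 had none. Peaks do not measure expression, so this neither establishes nor rejects the label.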

How the data were processed

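BRG1 ChIP-seq peaks of 12Z cells were analysed in 3 deposited broad peak lists, 1 per replicate and 1 overlap list. Per the submitters' processing notes, the tools included MACS2, Bowtie2, bedtools, SAMtools, Picard, Trim Galore and cutadapt, on build GRCh38.p12. Their settings, and whether the overlap list came from pooled reads, were not given in the sources used here. For each peak the authors' lists hold a fold enrichment over background, which is a ratio. They also hold −log10 values of the p-value and the q-value, as deposited by the authors. A deposited score was left unused.

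Peaks were assigned to protein-coding genes of a RefSeq table of GRCh38.p14. Patch releases leave chromosome positions unchanged, and distances to genes and starts rest on this. All 80 listed genes matched. The table of starts covers fewer genes than the gene table (15812 of 19974). Exon and intron classes were not used here. Overlap meant 1 base or more. Assignment was tested on simulated peaks planted only inside bodies of genes that overlap no other gene. The planted numbers of 200 of 200 genes were recovered, which such placement makes nearly certain. Assignment to the nearest gene within 100 kb was not tested. The planned chromosome arm was replaced by the chromosome between its first and last coding gene.

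The members and gene lists were chosen with earlier results of these data known. All 10 members, every other pathway gene with a shared peak (except 1 not reported here), the 5 most alike genes for SMAD3 and for SMURF2 and the adjacent genes were named. Alternatives were other distances, stricter peaks, other overlaps and single replicates. Python 3.11.15, numpy 2.4.6, pandas 2.3.3, scipy 1.17.1 and matplotlib 3.10.9 were used.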

Additional observations from a re-analysis of the deposited data

How the results depend on the processing

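Counting shared peaks in the gene body alone gave 8 for SMAD3, 3 for SMURF2 and 10 other pathway genes. By this count 5.95% of all protein-coding genes had one. Where −log10 q had to reach 5 in every list, 242 shared peaks remained, SMAD3 and SMURF2 had 0, 0 members had a shared peak and 1 other pathway gene, LTBP1, did. Only 25 of all protein-coding genes (0.125%) kept a shared peak at this setting. Shared peaks at or above the median fold numbered 5 at SMURF2. Replicate lists used in place of the overlap list, without replicate 1 or without replicate 2, gave 15 to 21 peaks for SMAD3, 8 to 17 for SMURF2, 5 to 9 members and 22 to 38 other pathway genes. The higher values all came from the replicate 1 list, which holds more peaks. Of all protein-coding genes, 20.2% had a peak in the replicate 1 list and 11.5% in the replicate 2 list. Requiring 50% of both peaks to overlap lowered the found share to 23.2% of replicate 1 and 44.8% of replicate 2 peaks. With a −log10 q of 5 in the list searched from, 1 replicate 2 peak remained and was found (100%), and no replicate 1 peak remained. Joining peaks less than 3 kb apart, chosen after seeing the data, gave 9 for SMAD3 (10 genes had as many) and 6 for SMURF2 (39 genes). Limits of 50 kb or 1 Mb and placement by any base kept all 4 counts within 1.5 times. The number of genes with at least as many peaks as SMAD3 or SMURF2 moved more, from 4 and 24 to 3 and 20 within 50 kb, 14 and 55 within 1 Mb, 11 and 140 with gene bodies alone, 2 and 29 at or above the median fold, and 7 to 13 and 25 to 49 without replicate 1 or without replicate 2. No paired analysis was possible because there is only 1 group of ChIP libraries.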
